A study of Maylandia zebra with 2 samples.

Results

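Axon guidance genes code for secreted and membrane proteins, and their receptors, that steer growing nerve fibres and migrating cells by attraction, repulsion or adhesion. The set described here holds 95 of the 28622 features in the deposited table, chosen by symbol as semaphorins, plexins, neuropilins, ephrins, Eph receptors, Slit and Robo proteins, netrins, Unc5 receptors, teneurins and latrophilins. Their levels are given across the cell classes of the oral lamina, a soft tissue of the jaws, in *Maylandia zebra*, a cichlid fish. The rule used names only and no measured value, but it was set with earlier results of these data known. 1 of the 95, *unc50*, matches by its letters but bears the name of a Golgi protein, so 94 genes stand in the 11 families.

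Nuclei from upper jaw soft tissue (20668 collected) and lower jaw soft tissue (20181 collected) were stained with DAPI, sorted as singlets and prepared as 1 library per jaw with 10x Chromium V3 reagents. Both jaws share 1 deposited matrix whose barcodes end in 1 or 2, and no source maps these suffixes to a jaw, so all nuclei were treated as 1 pooled sample with no replicates and the jaws were not compared. The labels give no age, sex, genotype or number of fish. The 1296 nuclei kept by the authors held 1423040 UMIs (unique molecular identifiers, each a counted RNA molecule), with a median of 832.5 per nucleus.

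The authors named 6 classes of nuclei. These are Immature TB (18 nuclei, 26459 UMIs), Mature TB (21 nuclei, 25210 UMIs), Mesenchymal (85 nuclei, 110189 UMIs), Pigmented (98 nuclei, 91398 UMIs), Immune (266 nuclei, 251105 UMIs) and Epithelial (808 nuclei, 918679 UMIs). Depth per nucleus differed less than class size, with medians between 750.5 UMIs in Immune and 1138 in Mature TB nuclei. The letters TB are not spelled out in the files. The taste cell genes *calb2a*, *trpm5* and *PLCB2* had 107, 26 and 28 UMIs in Mature TB, against 4, 4 and 3 in all other kept nuclei. Immature TB held none of these 3, but had 70 of the 257 UMIs of *sox2*, a transcription factor of sensory progenitors. Other genes of the taste bud list did not follow these, with 0 UMIs of *sox2* and *prox1a* in Mature TB, and with *krt8* at ratios of 0.471 in Mature TB and 0.298 in Immature TB against all other kept nuclei. The whole list of 14 features was at 6545 CPM in Mature TB and 3024 CPM in Immature TB. In the Pigmented class *mitfa*, a regulator of pigment cells, had 52 of its 69 UMIs, while the melanin enzyme *dct* had 1 UMI and *tyrp1b* and *pmela* had 0. The same class held 237 of the 309 UMIs of *stab1* and 23 of the 32 UMIs of *csf1ra*, both known from macrophages, so it is called by its deposited name only.

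Free RNA and mixed barcodes can carry genes of 1 class into another. The summed epithelium markers, at 28084 UMIs per 1000000 (CPM) in the Epithelial class, still reached 13341 CPM in Immature TB, 10101 CPM in Mesenchymal, 9466 CPM in Immune, 6685 CPM in Pigmented and 5157 CPM in Mature TB nuclei. Their part in the levels of epithelium-rich guidance genes outside the epithelium was not tested. Of 12 features from the neuron marker list 6 had no UMI in any kept nucleus, among them *elavl3*, *snap25a*, *stmn2a* and *prph*. The deepest of those present were *rbfox3a* with 81 UMIs, *syt1a* with 25, *gap43* with 17 and *elavl4* with 16. The muscle list held 1 UMI in all. The 2 suffix sets shared 1 barcode sequence.

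Guidance ligands and receptors form known partner families. Semaphorins signal through plexins, and the secreted class 3 semaphorins also bind neuropilins as co-receptors. Ephrins are membrane-bound ligands of Eph receptor kinases, Slits bind Robo receptors, netrins act through Unc5 receptors and DCC or neogenin, and teneurins bind latrophilins across cell contacts. Outside the nervous system these families are known to act in epithelial boundaries, blood vessels, connective tissue and immune cells, and in taste buds they are known to shape the innervation of the sensory cells.

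The 94 genes made up 1.26% of all UMIs (17944), and 98.0% of kept nuclei held at least 1 UMI of them. By family the UMIs numbered 4860 for 9 plexins, 4482 for 29 semaphorins, 2638 for 10 ephrins, 2120 for 15 Eph receptors, 1175 for 5 latrophilins, 877 for 4 Slits, 640 for 4 Robos, 364 for 4 neuropilins, 319 for 3 teneurins, 246 for 6 Unc5 receptors and 223 for 5 netrins. These numbers show the depth behind each family, since UMIs depend on transcript length and sequence and were not compared between genes. A gene was taken as measured from 10 UMIs over the kept nuclei, which 77 of the 94 reached. Of the other 17, *sema5bb* had none, and the highest were *ntn5* and *sema3aa* with 9 each.

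For each class, the CPM of a gene was divided by its CPM in all other kept nuclei. A gene was called higher at a ratio of at least 2, provided the class held at least 5 of its UMIs, and lower at a ratio of at most 0.5 where the other nuclei predicted at least 6 UMIs. Parentheses hold 95% intervals, which cover counting error alone, and with 1 pooled sample there is no test and no p-value. The classes were themselves built from expression, these genes included, so the ratios describe the classes and test nothing. 55 of the 77 measured genes were higher in some class and 55 lower in some class, and 12 were neither, with *PLXNA1* (508 UMIs) and *tenm4* (196 UMIs) the deepest of the 12. The share of all measured features called in some class is not given here, so these counts show no trait of the set.

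The Mesenchymal class stood furthest above its background, with 28 of the 77 genes higher, a share of 36.4% against 8.8% of all 12230 measured features by the same rule. It was lower for 11 of the 43 genes that could be read as lower, against a background of 20.9%. In Mature TB 10 genes were higher (background 3.79%) and 2 of 13 lower (31.9%). Immature TB had 8 genes higher (3.59%) and 4 of 13 lower (25.1%). Pigmented nuclei showed the opposite balance, with 7 genes higher (9.89%) and 30 of 40 lower (30%), a share of 75.0%. Immune nuclei had 3 genes higher (12.1%) and 15 of 59 lower (16.3%). Epithelial nuclei had 17 genes higher (14%) and 27 of 74 lower (20.4%). The median log2 ratio of the 77 genes was 0.66 in Mesenchymal nuclei, where that of all measured features was −0.08, and −1.14 in Pigmented nuclei, where that of all features was −0.00.

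**Figure D1:**
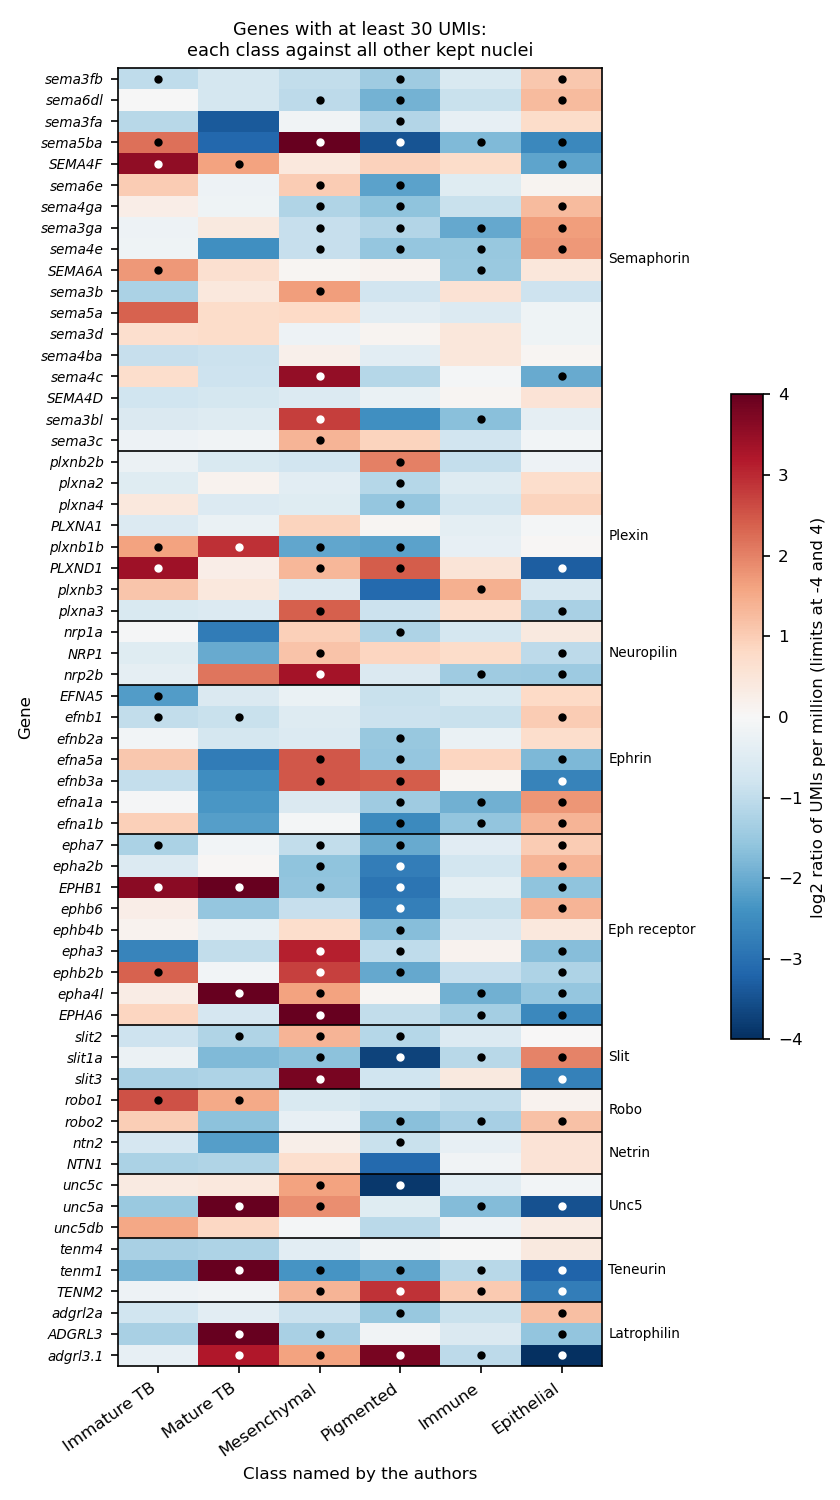
Colour gives the log2 ratio of CPM for each gene with at least 30 UMIs (rows, by family) in each of the 6 classes (columns) against all other kept nuclei, with 0.5 UMI added to each sum and colours limited at −4 and 4. Dots mark genes called higher or lower; the Mesenchymal column holds many red dotted cells and the Pigmented column many blue ones.

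Summed over the 94 genes, the level was 20825 CPM (19082–22685) in Mature TB, 15836 CPM (14356–17427) in Immature TB, 15492 CPM (14765–16244) in Mesenchymal, 13136 CPM in Epithelial, 11051 CPM (10380–11754) in Pigmented and 8821 CPM in Immune nuclei. The Mature TB sum leaned on few genes, with 80 UMIs of *ADGRL3*, 75 of *EPHB1*, 68 of *tenm1* and 40 of *unc5a* among the 25210 UMIs of the class. Another scaling of the class totals, by TMM factors from edgeR, moves every log2 ratio of a class down by 0.62 in Mature TB, 0.56 in Immature TB, 0.28 in Pigmented, 0.14 in Immune and 0.12 in Mesenchymal nuclei, and up in the Epithelial class (a shift of −0.16). The summed ratio of Immature TB to other nuclei, 1.26 (1.14–1.39), lies above 1 by plain totals and below 1 by TMM, where its log2 value is −0.22. 7 of the summed family and class ratios change direction in this way, all of them between 0.994 and 1.26 by plain totals. They are those of all genes in Immature TB, of plexins in both TB classes, of neuropilins, teneurins and latrophilins in Pigmented nuclei and of Slits in Epithelial nuclei.

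**Figure D2:**
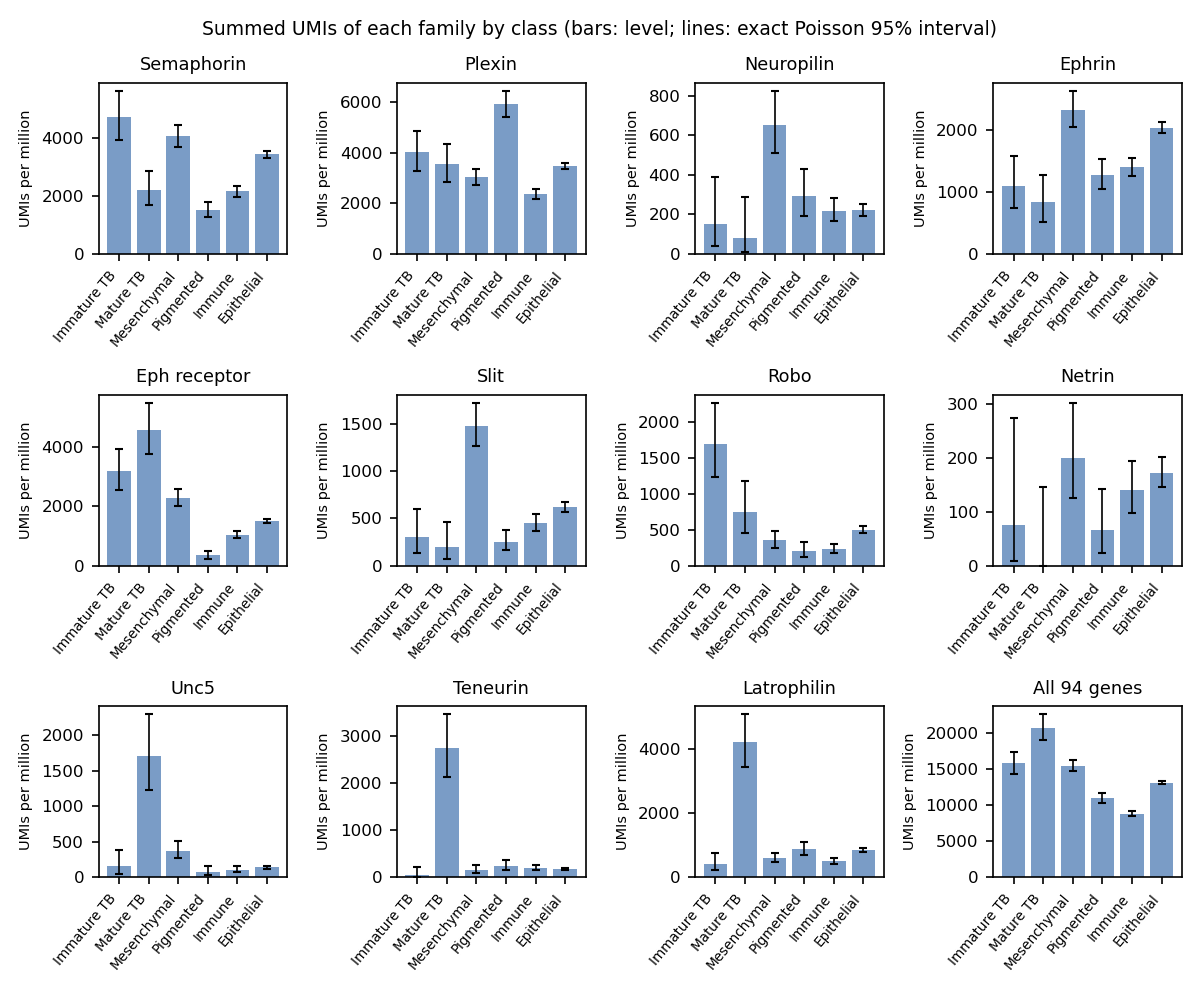
Bars give the summed CPM of each family, and of all 94 genes, in the 6 classes, with exact Poisson 95% intervals as lines. Teneurin, latrophilin and Unc5 bars are highest in Mature TB, the Robo bar in Immature TB, and the Slit and neuropilin bars in the Mesenchymal class.

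Teneurins are large transmembrane proteins that reach across cell contacts, and latrophilins are the adhesion receptors that bind them. *tenm1* had 2697 CPM in Mature TB nuclei, against 31.9 CPM in Immune, 16.3 CPM in Epithelial, 10.9 CPM in Pigmented and 9.08 CPM in Mesenchymal nuclei. It had no UMI in Immature TB, where 3 UMIs equal 113 CPM. Mature TB thus held 68 of its 93 UMIs, a ratio of 151 (94.1–249) to all other nuclei. In suffix 1 its level was 2793 CPM in Mature TB and 22.4 CPM in other nuclei, and in suffix 2 it was 2597 CPM and 12.5 CPM.

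The latrophilin *ADGRL3* had 3173 CPM in Mature TB nuclei, against 37.8 CPM in Immature TB, 54.5 CPM in Mesenchymal, 120 CPM in Pigmented, 95.6 CPM in Immune and 80.6 CPM in Epithelial nuclei. Its ratio in Mature TB was 38.2 (28.4–51.3), and both suffixes gave a high level, 3646 CPM against 101 CPM in suffix 1 and 2679 CPM against 61.1 CPM in suffix 2. The separate feature *adgrl3.1* was higher in 3 classes, with ratios of 14.0 (9.26–21.1) in Pigmented, 9.03 (4.74–15.98) in Mature TB and 2.98 (1.73–4.91) in Mesenchymal nuclei. In suffix 2 its log2 ratio in Mesenchymal nuclei was 2.24, against 1.57 over all nuclei. In the Epithelial class it was lower at 0.0413 (0.0162–0.0886), with 7 of its 100 UMIs there. Its log2 ratio in the Epithelial class was −4.60 over all nuclei, −3.64 in suffix 1 and −6.65 in suffix 2, and in Mature TB it was 3.17 over all nuclei and 2.34 in suffix 2. The third measured latrophilin, *adgrl2a*, ran the other way, at 767 CPM in Epithelial against 335 CPM in other nuclei, a ratio of 2.29 (1.93–2.73).

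Of the other teneurins, *TENM2* was highest in Pigmented nuclei, with 10 of its 30 UMIs and a ratio of 7.28 (3.05–16.3). It was also called higher in Immune nuclei with 9 UMIs, but 8 of these came from suffix 2 and 1 from suffix 1, where its ratio was 0.24. Its call of higher in Mesenchymal nuclei rested on 5 UMIs, all from 1 of the 85 nuclei. *tenm4* was called neither higher nor lower in any class, with ratios from 0.271 in Immature TB to 1.31 in Epithelial nuclei.

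*tenm1* and *ADGRL3* were mostly read in different nuclei of the Mature TB class. *tenm1* was found in 11 of 21 Mature TB nuclei, with a median of 5 and a maximum of 13 UMIs in those that held it. *ADGRL3* was found in 10 of 21, with a median of 9.5 and a maximum of 15 UMIs. Only 2 nuclei held both, 1 with 4 *tenm1* and 1 *ADGRL3* UMIs and 1 with 1 and 4, and 2 nuclei held neither. Counting only nuclei with at least 2 UMIs, a threshold chosen after the values were seen, 9 nuclei held *tenm1*, 8 held *ADGRL3*, none held both and 4 held neither. Nuclei with *tenm1* came from both suffixes (6 and 5), as did those with *ADGRL3* (6 and 4), and their median depths were 1213 and 1114.5 UMIs. 5 of the 21 nuclei were among the highest 6% of Scrublet scores, a measure of likeness to simulated doublets, and without those nuclei the log2 ratios of the class were 7.54 for *tenm1* and 5.58 for *ADGRL3*. Thinned to 500 UMIs per nucleus, *tenm1* was found in 47.6% (25.7–70.2) and *ADGRL3* in 47.6% of Mature TB nuclei. In Epithelial nuclei the thinned shares were 0.432% and 3.89%, and unthinned 1.36% and 6.44%, at a median depth of 840.5 UMIs.

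**Figure D3:**
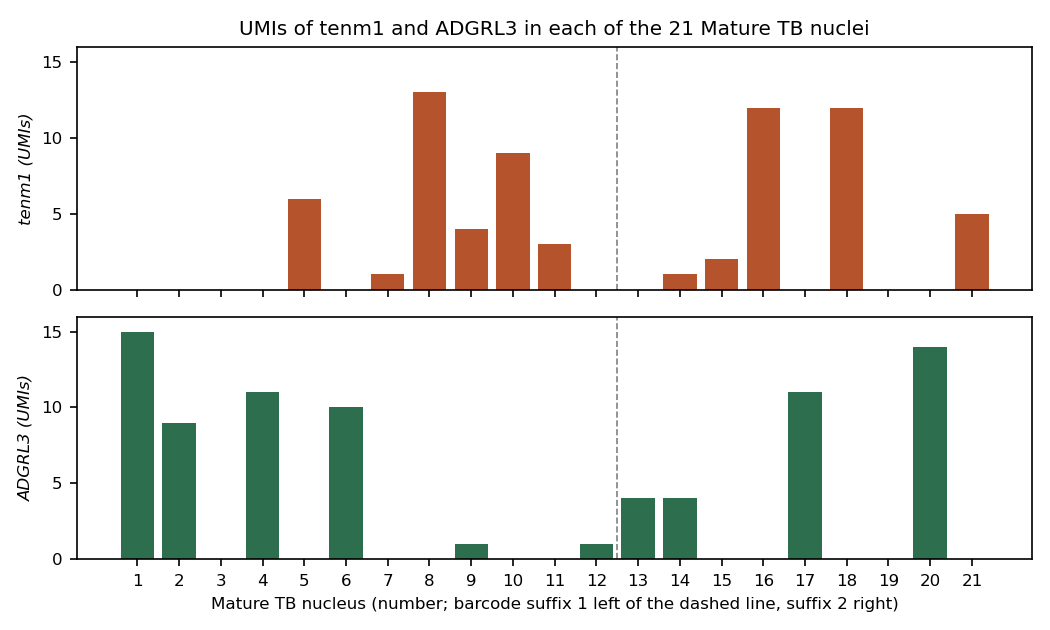
Bars give the UMIs of tenm1 (upper panel) and ADGRL3 (lower panel) in each of the 21 Mature TB nuclei, ordered by barcode suffix. Tall bars of the 2 genes fall on different nuclei, and the 2 nuclei that hold both genes hold 1 UMI of 1 of them.

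The taste cell genes were read across both sets of nuclei. *calb2a*, which codes for the calcium-binding protein calretinin, was found in 10 of the 11 *tenm1* nuclei and 7 of the 10 *ADGRL3* nuclei. *trpm5*, the cation channel of taste transduction, was found in 8 and 6. *EPHB1* was found in all 11 *tenm1* nuclei and in 8 of the 10 *ADGRL3* nuclei. The nuclei are cells of 1 class and 1 pooled sample, not replicates, and the separation of the genes was not tested.

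Among the ephrins, the membrane-bound ligands, some were called higher in the epithelium and others in the mesenchyme. The deep genes *EFNA5* and *efnb2a* (319 UMIs) were called higher in no class. *efna1a* had 131 CPM in Epithelial against 37.7 CPM in other nuclei, a ratio of 3.47 (2.13–5.96), or a log2 ratio of 1.79 that was 2.77 in suffix 2, and *efna1b* a ratio of 2.62 (1.64–4.36). *efnb1*, a transmembrane ephrin of epithelial boundaries in many vertebrates, was deeper, with 618 of 784 UMIs in the Epithelial class and a ratio of 2.04 (1.72–2.44). *efna5a* had 563 CPM in Mesenchymal nuclei against 101 CPM in other nuclei, a ratio of 5.596 (4.07–7.62), or a log2 ratio of 2.48 that was 3.27 in suffix 2. Its named counterpart *EFNA5* had 874 UMIs and did not follow it, with ratios of 0.831 (0.624–1.09) in Mesenchymal and 1.75 (1.49–2.05) in Epithelial nuclei. *efnb3a* was shared by Mesenchymal and Pigmented nuclei at 445 and 449 CPM, ratios of 5.61 (3.91–7.96) and 5.33 (3.63–7.69), and had 37.0 CPM in the Epithelial class. In suffix 2 its log2 ratios were 1.68 and 3.13, against 2.49 and 2.42 over all nuclei. Ephrins summed were at 833 CPM in Mature TB and 1096 CPM in Immature TB, the lowest of the 6 classes, against 2032 CPM in Epithelial nuclei.

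Eph receptors, the kinases that bind ephrins, showed 1 gene shared by both TB classes. *EPHB1* had 2975 CPM in Mature TB and 1928 CPM in Immature TB nuclei, against 151 CPM in Immune, 111 CPM in Epithelial, 63.5 CPM in Mesenchymal and 21.9 CPM in Pigmented nuclei. Its ratios to all other nuclei were 20.8 (15.7–27.2) and 12.02 (8.69–16.4). It was found in 18 of 21 Mature TB and 15 of 18 Immature TB nuclei, shares of 85.7% and 83.3%, and after thinning in 61.9% and 72.2%. Thinned shares were between 0 and 4.48% in the other 4 classes, where unthinned shares were between 2.04% and 7.67%. Mature and Immature TB differed in *epha4l*, a receptor of the EphA group by its name, with 19 UMIs in Mature TB and 1 in Immature TB. *ephb2b* was lower in Mature TB, with 2 UMIs against 13 in Immature TB, a Mature over Immature ratio of 0.161 (0.0177–0.713).

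In the mesenchyme, *epha3* had 626 CPM against 73.1 CPM in other nuclei, a ratio of 8.56 (6.19–11.8), and 16.6 and 6.07 in suffix 2 and suffix 1 taken alone. *EPHA6*, a feature named 1 of many and so uncertain in its reads, had 29 of its 44 UMIs in Mesenchymal nuclei, a ratio of 23.0 (11.95–46.2), and its log2 ratio of 4.53 was 3.50 in suffix 1 and 6.05 in suffix 2. *ephb2b* was at 6.57 (4.62–9.24) there. Epithelial nuclei held another set of receptors. *epha2a* had all 18 of its UMIs in the Epithelial class, 3.29-fold higher with 3 UMIs taken as the floor over all other nuclei. *epha2b* was at 2.58 (1.95–3.45), *ephb6*, a member whose kinase domain is inactive in mammals, at 2.58 (1.85–3.67) and *epha7* at 2.01 (1.65–2.48). In Pigmented nuclei the Eph family was at 339 CPM (230–481), a ratio of 0.216 (0.147–0.308), and 7 of its genes were called lower, from *epha3* at 0.455 to *EPHB1* at 0.107. In suffix 2 the log2 ratio of *epha3* there was −0.38, against −1.14 over all nuclei.

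**Figure D4:**
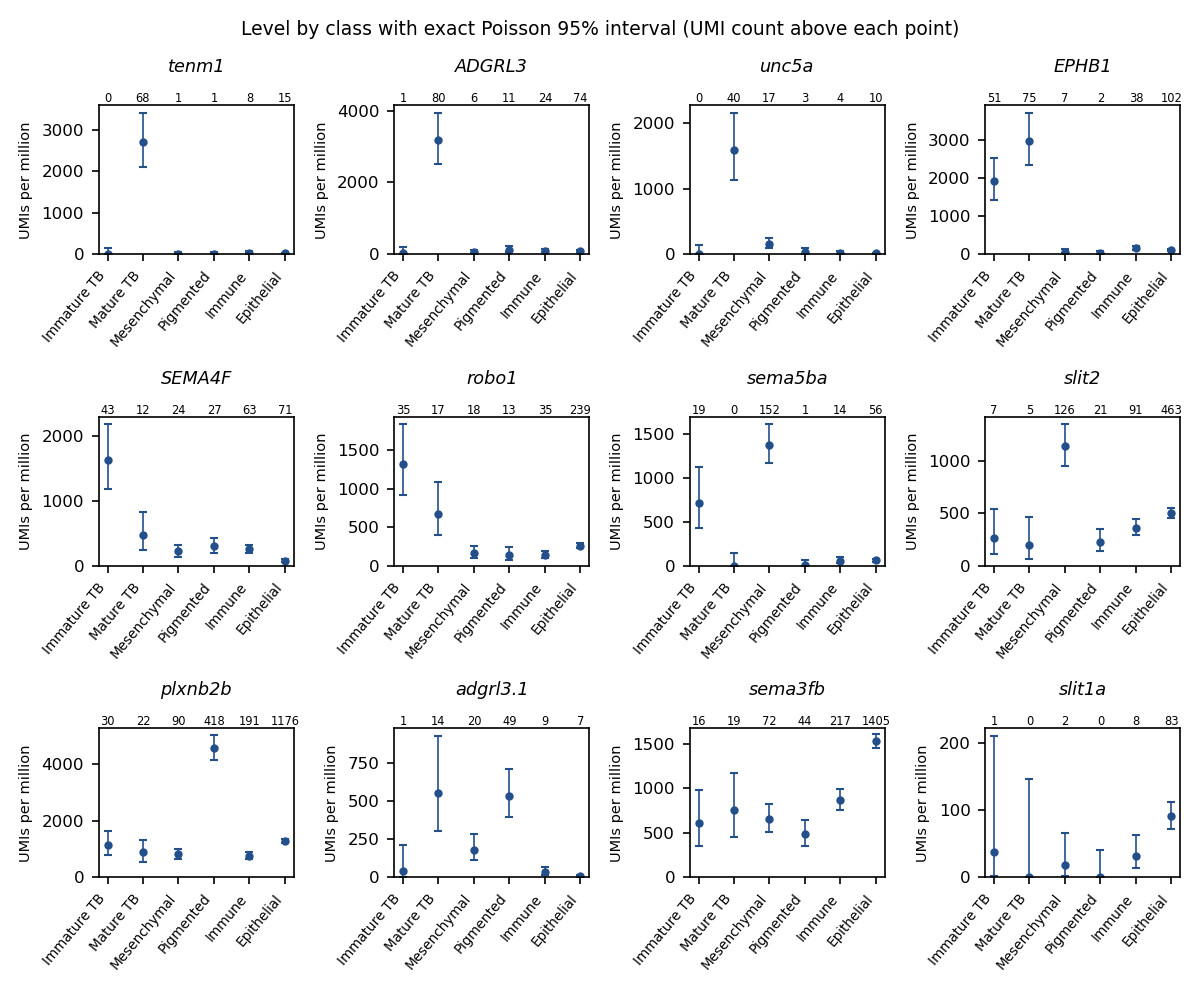
Points give the CPM of 12 genes in the 6 classes with exact Poisson 95% intervals, and the UMI count stands above each point. tenm1, ADGRL3 and unc5a are high in Mature TB, EPHB1 in both TB classes, SEMA4F and robo1 in Immature TB, sema5ba and slit2 in Mesenchymal, plxnb2b and adgrl3.1 in Pigmented, and sema3fb and slit1a in Epithelial nuclei.

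Semaphorins divided between the classes by gene. *SEMA4F*, a transmembrane semaphorin, had 1625 CPM in Immature TB and 476 CPM in Mature TB nuclei, against 295 CPM in Pigmented, 251 CPM in Immune, 218 CPM in Mesenchymal and 77.3 CPM in Epithelial nuclei. Its ratio was 11.5 (8.08–16.1) in Immature TB and 2.92 (1.49–5.20) in Mature TB. In Immature TB it was found in 14 of 18 nuclei, and all 14 also held *EPHB1*. *sema5ba*, which codes for a transmembrane semaphorin with thrombospondin repeats, had 1379 CPM in Mesenchymal and 718 CPM in Immature TB nuclei, against 61.0 CPM in Epithelial, 55.8 CPM in Immune and 10.9 CPM in Pigmented nuclei, and no UMI in Mature TB. Its Mesenchymal ratio was 20.1 (15.4–26.4), with 1408 CPM in suffix 1 and 1322 CPM in suffix 2. In Immature TB its log2 ratio was 2.17, and 1.29 in suffix 2. Mature TB was 6.03-fold lower than Immature TB for this gene, with 3 UMIs taken as the floor.

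Other semaphorins of the mesenchyme were *sema4c* at 11.4 (6.25–20.9), *sema3ab* at 7.15 (2.76–17.4), *sema3bl* at 6.67 (3.21–13.3) and *sema6bb* at 5.499 (1.71–15.5). The log2 ratio of *sema4c*, 3.52, was 1.93 in suffix 2. That of *sema3bl*, 2.74, was 1.88 in suffix 1 and 3.64 in suffix 2, and that of *sema6bb*, 2.46, was 1.84 and 3.31. *sema3b* was at 3.098 (1.54–5.79), but its log2 ratio was −0.34 in suffix 2 alone. The secreted *sema3fb*, with 1773 UMIs, had 1529 CPM in Epithelial against 730 CPM in other nuclei, a ratio of 2.10 (1.87–2.36), and was lower in Pigmented nuclei at 0.371 (0.268–0.4999). *sema3ga*, also secreted, and *sema4e*, *sema4ga* and *sema6dl*, transmembrane by their groups, were higher in the Epithelial class with ratios from 2.40 to 3.40. All 5 were lower in Pigmented nuclei. The log2 ratio of *sema4ga* there, −1.82, was −2.80 in suffix 1 and −0.90 in suffix 2, which is short of the call, and that of *sema4e*, −1.76, was −2.40 in suffix 1.

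Plexins are the receptors of semaphorins. *plxnb2b* had 4573 CPM in Pigmented nuclei, against 1280 CPM in Epithelial, 1134 CPM in Immature TB, 873 CPM in Mature TB, 817 CPM in Mesenchymal and 761 CPM in Immune nuclei. Its ratio was 4.04 (3.61–4.50), from 5284 against 1162 CPM in suffix 1 and 3576 against 1100 CPM in suffix 2. It was found in 80.6% (71.4–87.9) of Pigmented nuclei and, thinned, in 74.1% (63.1–83.2). In Epithelial nuclei the shares were 62.7% and, thinned, 46.3%. Summed plexins were at 5897 CPM (5410–6417) in Pigmented nuclei, while *plxna2*, *plxna4* and *plxnb1b* were lower there at 0.447, 0.333 and 0.193. In suffix 2 the log2 ratios of *plxna2* and *plxnb1b* were −0.40 and −1.03, against −1.16 and −2.37 over all nuclei. *PLXND1*, a plexin known from blood vessels and immune cells, was higher in Immature TB at 10.2 (5.91–16.8), in Pigmented at 5.25 (3.37–8.002) and in Mesenchymal nuclei at 2.46 (1.44–4.01). In Epithelial nuclei it was at 0.0998 (0.0568–0.166). Its log2 ratio in Pigmented nuclei was 2.39, with 1.48 in suffix 1 and 3.45 in suffix 2.

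The 2 features that share the letters of plexin A2 had different patterns. *PLXNA2* had 24 of 28 UMIs in Mesenchymal nuclei, a ratio of 71.5 (24.6–283) whose log2 value of 6.16 was 5.43 in suffix 1. *plxna2* was spread more widely, with 754 of 1007 UMIs in Epithelial nuclei, a ratio of 1.64 (1.42–1.89) that is short of the call. It was found in 44.7% of Mesenchymal and 49.4% of Epithelial nuclei. The 2 features have different identifiers, and how near their sequences are was not analysed here. *plxnb1b* was higher in Mature TB at 7.41 (4.77–11.1) and in Immature TB at 2.92 (1.49–5.20). Summed plexins in these classes were near the level of other nuclei, at ratios of 1.03 and 1.18, which lie below 1 under TMM scaling.

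Neuropilins, the co-receptors of secreted semaphorins, were summed at 653 CPM (511–823) in Mesenchymal nuclei, a ratio of 2.94 (2.24–3.81). *nrp2a* and *nrp2b* led there with ratios of 11.9 (5.09–27.9) and 9.93 (4.66–20.9), and *NRP1*, a feature named 1 of many, was at 2.15 (1.20–3.64). *nrp2a* was also higher in Pigmented nuclei at 7.71 (3.03–18.3).

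Slits are secreted ligands that repel axons through Robo receptors. *slit2* had 1143 CPM in Mesenchymal nuclei, against 504 CPM in Epithelial, 362 CPM in Immune, 265 CPM in Immature TB, 230 CPM in Pigmented and 198 CPM in Mature TB nuclei, with a Mesenchymal ratio of 2.56 (2.09–3.11). *slit3* was more restricted, with 35 of its 65 UMIs in Mesenchymal nuclei and a ratio of 13.9 (8.29–23.4). *slit1a* was the measured Slit called higher in the epithelium, with 83 of its 94 UMIs there and a ratio of 4.14 (2.20–8.62). *slit2* was still found in more Epithelial nuclei, 28.5% against 6.81% for *slit1a*. Pigmented nuclei held no UMI of *slit1a* and were 2.15-fold lower with 3 UMIs taken as the floor. Summed Slits were at 2.72 (2.28–3.23) in the Mesenchymal class. In the Epithelial class they were at 0.994, a ratio just above 1 under TMM scaling.

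Among the receptors, *robo1* had 1323 CPM in Immature TB and 674 CPM in Mature TB nuclei, against 260 CPM in Epithelial, 163 CPM in Mesenchymal, 142 CPM in Pigmented and 139 CPM in Immune nuclei. Its ratios were 5.74 (3.93–8.15) in Immature TB and 2.77 (1.60–4.51) in Mature TB, and it was found in 11 of 18 and 9 of 21 nuclei. *robo2* was called higher in Epithelial nuclei at 2.27 (1.67–3.15), and had 1 UMI in Mature TB and 9 in Immature TB. It was not confined to the epithelium, and was found in 33.3% (13.3–59.0) of Immature TB and 17.7% (15.1–20.5) of Epithelial nuclei. Summed Robo receptors were at 1701 CPM (1241–2276) in Immature TB, a ratio of 3.99 (2.88–5.41), while summed Slits were at 302 CPM in Immature and 198 CPM in Mature TB, against 1479 CPM in Mesenchymal nuclei.

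Netrins are laminin-like secreted cues, and Unc5 proteins are the receptors that turn their signal into repulsion. No netrin was called higher in any class, and *ntn2*, with 126 UMIs the deepest of them, was lower in Pigmented nuclei at 0.478 (0.128–1.25), an interval that includes 1. Its log2 ratio there was −2.36 in suffix 1 and −0.13 in suffix 2. *unc5a* had 1587 CPM in Mature TB nuclei, against 154 CPM in Mesenchymal, 32.8 CPM in Pigmented, 15.9 CPM in Immune and 10.9 CPM in Epithelial nuclei, and no UMI in Immature TB. Its ratio was 65.2 (40.3–106), but 18 of its 40 UMIs came from 1 nucleus and it was found in 8 of 21. Without that nucleus its log2 ratio was 5.17, against 6.03 with it. In suffix 1 its Mature TB level was 2017 CPM and in suffix 2 it was 1136 CPM, against 22.4 and 26.6 CPM in other nuclei. *unc5c* was higher in Mesenchymal nuclei at 2.98 (1.75–4.85), with log2 ratios of 2.42 in suffix 1 and 0.97 in suffix 2, and *unc5b* had 12 of its 13 UMIs in the Epithelial class, a ratio of 6.59 (0.975–282) whose log2 value of 2.72 was 1.13 in suffix 2.

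Mature and Immature TB nuclei were also set side by side. Of 26 genes measured in the pair, 8 were higher in Mature TB, a share of 30.8% against 23.8% of all features measured in the pair, and 6 of 17 were lower, against 39.3%. Mature TB was 23.8-fold higher for *tenm1* and 14.0-fold higher for *unc5a*, with 3 UMIs over Immature TB taken as the floor. *ADGRL3* had 80 UMIs in Mature TB and 1 in Immature TB, a ratio of 84.0 (14.6–3357). *SEMA4F*, *PLXND1* and *robo2* were lower in Mature TB at 0.293 (0.141–0.565), 0.110 (0.0125–0.458) and 0.117 (0.00266–0.842).

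The Mesenchymal class held markers of blood vessels besides those of connective tissue. The endothelium list was at 590 CPM in it against 63.2 CPM in other nuclei, and 27 of its 85 nuclei held at least 1 UMI of the list. *unc5a* had 15 of its 17 Mesenchymal UMIs in those 27 nuclei. Without them, an alternative chosen after seeing the data, its log2 ratio was −0.65 in place of 1.83. *SEMA4F* had 15 UMIs in the 27 nuclei and 9 in the other 58, a ratio of 3.21 (1.31–8.31). *adgrl2a* was at 2.38 (1.19–4.80), and *ADGRL3* had 6 UMIs in the 27 nuclei and 0 in the other 58. *sema5ba*, *slit3*, *EPHA6* and *ephb2b* ran the other way, with ratios between 0.286 and 0.575 in the 27 nuclei against the other 58. *slit2* did not differ beyond counting error at 1.03 (0.699–1.51).

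Genes of the pigment or macrophage list, and markers of Schwann cells and neurons, were also read in the Mesenchymal class. *pnp4a* had 18 of its 22 UMIs there, a ratio of 53.6 (17.7–218), and *ltk* was at 7.94 (3.19–18.9). No other feature of that list was called higher there, with *mitfa* at 1.13 (0.401–2.61). Their part in the guidance gene ratios of the class was not tested. *mpz*, a myelin protein of Schwann cells, had 10 of its 12 UMIs there, a ratio of 59.6 (12.7–559), and *mbpa* had 2 of 2, while *s100b*, *gfap* and *foxd3* had 0 in all nuclei. The whole glia list was at 263 CPM in Mesenchymal against 277 CPM in other nuclei, with 371 of its UMIs over all nuclei from *mbpb*. *mbpb* itself ran the other way, at 0.502 (0.278–0.839) in Mesenchymal nuclei. *egr2b* and *erbb3b* had all of their 4 and 2 UMIs in Immune nuclei, while *plp1a* and *sox10* had their 1 UMI each in Mesenchymal nuclei. Of the neuron list, *rbfox3a* was higher at 2.49 (1.29–4.47) and *tubb5* had 3 of its 5 UMIs there. *elavl4* had 0 of its 16 UMIs in the class. The intervals of *syt1a*, at 1.04 (0.118–4.19), and *gap43*, at 3.67 (0.871–11.9), included 1. The neuron list summed to 209 CPM against 92.9 CPM in other nuclei. 3 of the 85 Mesenchymal nuclei held the 14 UMIs of the glia list other than *mbpb*. In those 3 nuclei *SEMA4F* had 7 of its 24 Mesenchymal UMIs, a ratio of 6.44 (2.26–16.3) to the other 82, *sema4c* had 6 of 24, a ratio of 5.22 (1.69–13.7), and *sema3b* had 5 of 13, a ratio of 9.78 (2.52–33.9). Without them, an alternative chosen after seeing the data, 27 genes were higher and 9 lower in the class. The log2 ratio of *sema3b* was then 1.02 in place of 1.63, and that of *NRP1* was 0.81 in place of 1.11, short of the call.

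Within the epithelium each cluster was compared with the other Epithelial nuclei, by the same rule on the 67 genes measured there. Cluster 4 stood apart by its lower genes, 21 of 39 against a background of 27.2%. Its 10 higher genes of 67 were a share near the background of 15.5% of features. Its summed level was 9001 CPM against 13857 CPM in the other Epithelial nuclei, a ratio of 0.650 (0.612–0.689). *SEMA4F* had 279 CPM in cluster 4 against 42.2 CPM, a ratio of 6.61 (4.04–10.9), and *PLXNA1* 939 CPM against 248 CPM, a ratio of 3.79 (3.01–4.76). *sema4ga* was at 3.33 (2.27–4.83), *efna1b* at 2.87 (1.86–4.36) and *ADGRL3* at 2.43 (1.40–4.07). Taken by suffix, *efna1b* was at 1.93 in suffix 1 and 4.65 in suffix 2. *tenm4* had no UMI in cluster 4 and 138 in the other Epithelial nuclei, 8.02-fold lower with 3 UMIs taken as the floor. *sema3fa* had 2 against 213 UMIs, a ratio of 0.0539 (0.00648–0.197). *sema3fb*, *slit2*, *plxna4* and *epha7* were lower there at 0.274, 0.205, 0.179 and 0.143. The epithelium markers summed to 17957 CPM in cluster 4 and to between 24292 and 31332 CPM in the other 4 Epithelial clusters. The immune markers summed to 2325 CPM in cluster 4 and to between 335 and 778 CPM in the other 4, and their part in these ratios was not tested. Over the whole Epithelial class *cd74a* had 345 UMIs of that list and *runx3* 237, and the other genes between 6 and 35 each. In the Immune class *cd74a* was at 1.04 (0.848–1.27) and *runx3* at 4.18 (3.73–4.68) against other nuclei.

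Cluster 3 had 5 genes higher (6.22%) and 12 of 37 lower (16.9%). *epha3* led at 4.63 (2.604–8.06), with 211 CPM against 45.4 CPM, followed by *efnb3a* at 3.73 (1.64–7.96), *efna5a* at 3.56 (2.02–6.08) and *EPHB1* at 3.25 (2.05–5.04). 3 of these ratios moved with the suffix, with *EPHB1* at 1.41 in suffix 1 and 7.59 in suffix 2, *efnb3a* at 1.996 and 10.1, and *epha3* at 2.02 in suffix 2. *unc5c* had no UMI in cluster 3, 2.82-fold lower with 3 UMIs taken as the floor, and *sema3ga* was at 0.122 (0.0146–0.449). Cluster 0, the deepest with a median of 1703 UMIs per nucleus, had 2 genes higher (6.45%) and 7 of 62 lower (11.8%). There *unc5c* had 53 of the 66 Epithelial UMIs, a ratio of 4.05 (2.18–8.10), and *NRP1* was at 2.45 (1.31–4.80), but at 1.04 in suffix 1 and 3.92 in suffix 2.

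Cluster 7 had 6 genes higher (4.62%) and 7 of 31 lower (16.1%). *ntn2* had 255 CPM against 87.3 CPM, a ratio of 2.92 (1.64–4.93), and *tenm4* 311 CPM against 137 CPM, a ratio of 2.28 (1.37–3.61). *PLXNA1*, high in cluster 4, had no UMI in cluster 7 and 322 in the other Epithelial nuclei, 8.95-fold lower with 3 UMIs taken as the floor. *robo1* had 2 UMIs against 237, a ratio of 0.101 (0.0122–0.370), with both UMIs from suffix 1, where the ratio was 0.223. Cluster 1 had 4 genes higher (5.14%) and 6 of 39 lower (15.1%). *plxnb1b* was at 2.34 (1.61–3.34), *slit1a* at 2.15 (1.28–3.51), *NTN1* at 2.56 (1.28–4.88) and *ephb2b* at 2.14 (1.18–3.71). *slit1a* was at 3.25 in suffix 1 and 0.821 in suffix 2, *plxnb1b* at 3.20 and 1.29, and *ephb2b* at 1.36 and 3.65. Counts of called genes by cluster moved with the suffix used, and for cluster 0 they were 9 higher and 3 lower in suffix 1 alone. The shares of all features in suffix 1 alone are not given here.

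**Figure D5:**
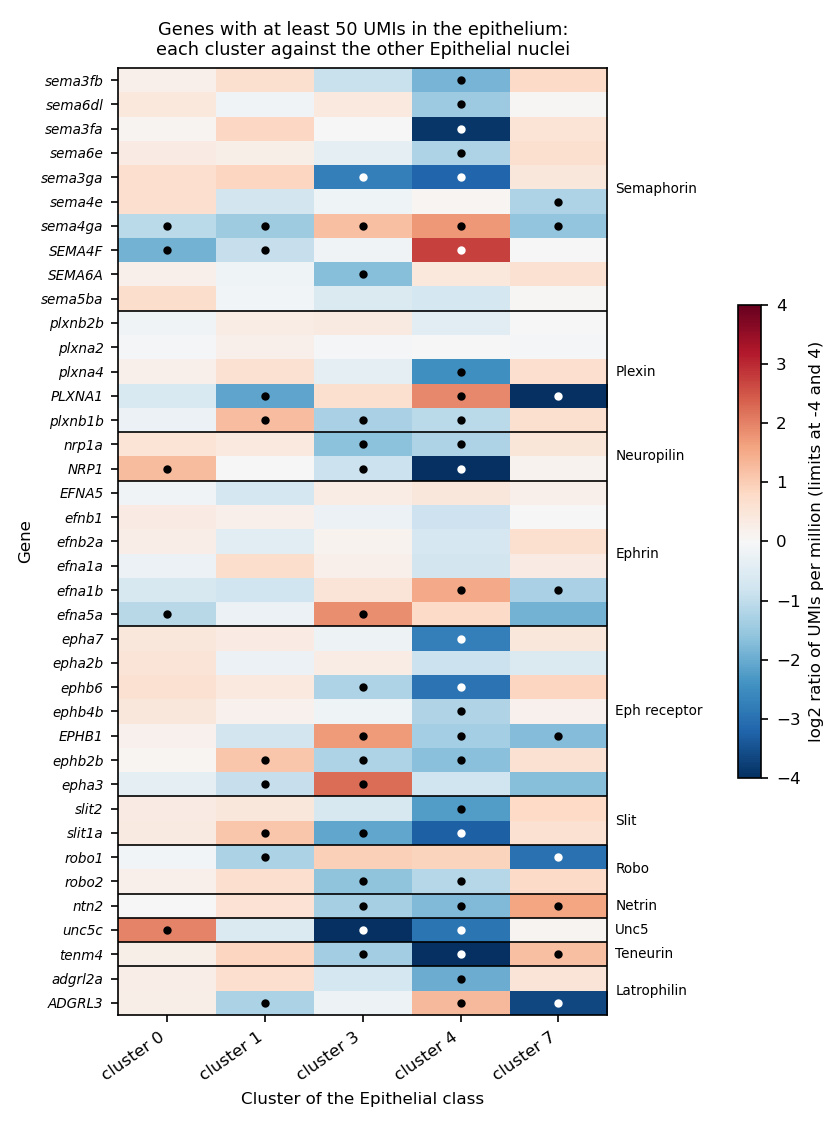
Colour gives the log2 ratio of CPM for each gene with at least 50 UMIs in the epithelium (rows) in each Epithelial cluster (columns) against the other Epithelial nuclei, with 0.5 UMI added to each sum and limits at −4 and 4. Dots mark called genes; cluster 4 is blue for most semaphorin, Eph and Slit rows and red for SEMA4F and PLXNA1, and cluster 7 is blue for PLXNA1.

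The Immune class had few genes above its rest but differed among its 3 clusters. In cluster 8, 12 of the 43 genes measured in the class were higher than in other Immune nuclei (background 13.8%) and 6 of 26 lower (25.9%). *efnb3a* had 24 UMIs in cluster 8 against 4, a ratio of 18.4 (6.31–72.9), *sema4ga* was at 9.19 (2.79–39.1), *slit3* at 7.66 (2.21–33.5) and *efna5a* at 3.83 (2.16–6.84). In suffix 1 *efnb3a* was at 12.5, *sema4ga* at 5.88 and *efna5a* at 2.79, and in suffix 2 *efna5a* was at 8.98. All 14 *slit3* UMIs of the class came from suffix 1. Cluster 9 had 14 higher (7.35%) and 1 of 9 lower (23.4%). *sema3fb* had 2072 CPM in it against 750 CPM, *plxna4* was at 4.57 (2.92–7.001) and *epha7* at 4.42 (2.59–7.31), all genes with a higher CPM in the Epithelial class than in all other kept nuclei. The epithelium markers were at 12844 CPM in cluster 9, against 8897 and 9823 CPM in clusters 2 and 8, and their part in these ratios was not tested. In suffix 1 *sema3fb* was at 1132 CPM in cluster 9, a ratio of 1.55 to other Immune nuclei, and in suffix 2 at 2715 CPM, a ratio of 3.46. *plxna4* was at 3.03 in suffix 1, and *epha7* at 6.73 in suffix 2. Cluster 2 had 2 genes higher (16.1%) and 16 of 42 lower (17.2%). *sema3fa* was at 2.91 (1.21–8.46) there and *plxnb3* at 2.37 (0.787–9.57). *plxnb3* had 23 of its 63 UMIs in the Immune class, a ratio of 2.68 (1.53–4.59) to all other nuclei.

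4 pairs of copies whose symbols differ by a final a or b had at least 20 UMIs in each copy. *nrp2a* and *nrp2b* differed in their spread over classes. *nrp2a* had 34.6% of its 26 UMIs in Pigmented and 7.69% in Epithelial nuclei, and *nrp2b* had 3.03% of its 33 UMIs in Pigmented and 39.4% in Epithelial nuclei. The odds ratio of the Epithelial share was 0.132 (0.0130–0.691), and that of the Pigmented share 16.2 (1.97–765). The Epithelial shares of the other pairs were within counting error of each other, at 86.3% and 82.7% for *efna1a* and *efna1b*, 80.0% and 71.2% for *ephb4a* and *ephb4b*, and 75.2% and 79.2% for *sema3fa* and *sema3fb*. Among these other pairs, outside the Epithelial class only the Mesenchymal shares of *sema3fa* and *sema3fb*, 6.99% and 4.06%, differed beyond it, at an odds ratio of 1.78 (1.01–3.01). Some members lie beside each other in the RefSeq gene order of the assembly Mzebra_GT3a, which holds 73 of the 95 symbols and gave 8 neighbouring pairs. Among these, *robo1* was called higher in both TB classes and *robo2* in Epithelial nuclei, though both were found in Immature TB nuclei. *efna1b* and its neighbour *efna3b* differed in the epithelium, with *efna3b* lower in Epithelial nuclei at 0.103 (0.0192–0.360). The log2 value of that ratio was −3.28, with −2.48 in suffix 1 and −2.60 without its top nucleus.

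Genes that work beside these families came from 2 lists. Of the 40 partners (co-receptors, repulsive guidance molecules and adhesion proteins), 18 were measured, and of the 78 effectors (proteins inside the cell that pass the signal to the cytoskeleton), 50 were. In Mature TB 5 of 18 partners were higher, a share of 27.8% against 3.79% of all features, and 1 of 1 lower (background 31.9%). *l1cama*, a neural adhesion protein that also binds neuropilins in mammals, had 1587 CPM there against 100 CPM in other nuclei, a ratio of 15.8 (10.9–22.7). In Immature TB 3 partners were higher, 16.7% against 3.59%, and 0 of 1 lower, and *neo1b*, a netrin receptor of the DCC group, was at 2.08 (1.29–3.18). In the Epithelial class 3 of 18 partners were higher, 16.7% against 14%, and 8 of 17 lower, 47.1% against 20.4%. *rgmb*, a ligand of neogenin, was at 3.18 (1.22–10.5) in Epithelial nuclei. Mesenchymal nuclei had 3 partners higher (background 8.8%) and 1 of 5 lower (20.9%), Pigmented nuclei 0 higher (9.89%) and 3 of 5 lower (30%), and Immune nuclei 2 higher (12.1%) and 2 of 11 lower (16.3%).

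The shares of the 50 effectors called higher were 6% in Mature TB (background 3.79%), 8% in Mesenchymal (8.8%), 10% in Pigmented (9.89%), 14% in Immune (12.1%) and 8% in Epithelial nuclei (14%), and 12% in Immature TB (3.59%). Lower were 3 of 11 in Mature TB (background 31.9%), 2 of 12 in Immature TB (25.1%), 10 of 38 in Mesenchymal (20.9%), 16 of 35 in Pigmented (30%), 8 of 43 in Immune (16.3%) and 8 of 50 in Epithelial nuclei (20.4%). *dpysl3*, a collapsin response mediator that passes semaphorin signals to microtubules, had 808 CPM in Mesenchymal nuclei against 30.5 CPM in other nuclei, a ratio of 26.5 (18.1–39.5). *ELMO1*, a partner of DOCK proteins in Rac activation, was at 6.502 (4.63–9.03) in Pigmented nuclei. *FYN*, a Src family kinase of plexin and Eph signalling, was at 5.21 (4.32–6.29) in Immune nuclei. *ngef*, an exchange factor of EphA signalling, was at 3.06 (1.72–5.85) in Epithelial nuclei, and the kinase *abl2* at 2.77 (2.16–3.59).

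Most called genes lay on the same side of 1 in both suffix sets. Because the calls were made on the sum of both sets, this is in part built in. All 8 higher genes of Immature TB, 10 of 10 of Mature TB, 24 of 28 of Mesenchymal, 6 of 7 of Pigmented, 1 of 3 of Immune and 17 of 17 of Epithelial nuclei lay on the same side of 1 in suffix 1 and in suffix 2. Genes called lower lay on the same side in both for every class, 89 in all. Fewer reached 2-fold in both suffixes. Of the higher genes these were 7 of 8 in Immature TB, 10 of 10 in Mature TB and 18 of 28 in Mesenchymal nuclei. They were 6 of 7 in Pigmented, 1 of 3 in Immune and 13 of 17 in Epithelial nuclei. Of the lower genes, in the same order of classes, they were 2 of 4, 0 of 2, 7 of 11, 20 of 30, 9 of 15 and 23 of 27. The suffix sets are parts of the same pooled sample and served as no replicate. The same shares over all called features are not given here.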

How the data were processed

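Per the file headers and the submitters' processing notes, the deposited matrix was made with Cell Ranger 3.1.0 and holds raw UMI counts per feature and barcode for 1381 barcodes. How reads were aligned, and to which genome build, is not given in the sources used here. The authors' metadata give cluster, class and a kept mark, which holds exactly the barcodes with over 300 and under 2500 detected genes. Both jaws form 1 pooled sample. The deposited rank-like score per nucleus was not used.

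UMIs of the members were summed per class and cluster over the 1296 kept nuclei and scaled to CPM. Ratios carry exact conditional intervals, levels exact Poisson intervals and shares Clopper-Pearson intervals, at 95%. They cover counting error only. The minimum of 10 UMIs, the 2-fold rule and the floor of 3 UMIs are stated with the results. A floor of 3 UMIs equals 3.27 CPM in Epithelial and 119 CPM in Mature TB nuclei. The calling rule was checked on simulated Poisson counts with planted changes much larger than 2-fold. These counts held no spread between nuclei and no planted change near 2-fold, so the check cannot speak to either. Members and gene lists were chosen with earlier results of these data known. Genes named were the 5 with the largest ratio per class and 3 per cluster among those with at least 10 UMIs in it, the deepest of each family, up to 8 pathway genes, and others chosen after their values were seen.

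Scrublet at an expected rate of 0.06 called 0 doublets, which cannot be taken as a working call, so the 78 nuclei with the highest 6% of scores were left out as an added alternative. Other alternatives were TMM factors (edgeR 4.0.16, R 4.3.3), other minimums, depth filters, single suffixes, a mean over nuclei, leaving out each gene's top nucleus, leaving out Mesenchymal nuclei with endothelium or glia marker UMIs (added later), and own Leiden clusters made without the members (16 clusters, 93.2% of nuclei in their deposited class). Detection was compared after thinning to 500 UMIs, which left out 114 Epithelial, 43 Immune, 17 Pigmented and 8 Mesenchymal nuclei. The software was scanpy 1.11.5, pandas 2.3.3, scipy 1.17.1 and numpy 2.4.6 in Python 3.11.15. 4 members named 1 of many (*NRP1*, *NTN1*, *EPHA6*, *UNC5C*) may share reads with copies. No sequences were analysed here, so the protein identity of copies was not computed.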

Additional observations from a re-analysis of the deposited data

Results flagged for a closer look

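Guidance genes were also counted in barcodes that the authors did not keep. The 41 barcodes above the gene limit held 8384 UMIs of the 94 genes among 658114, a level of 12739 CPM (12468–13015), with 88 of the genes present. The 44 barcodes below the gene limit held 162 UMIs among 17822, a level of 9090 CPM (7744–10602). The kept nuclei had 12610 CPM (12426–12796). Both are given because these barcodes entered no comparison yet hold UMIs of the genes, as any barcodes with RNA would. Neither set was above the kept nuclei: the interval of the deeper barcodes overlaps theirs, and the level of the shallower ones is lower. The deepest of the barcodes not kept had 134092 UMIs, against 5326 for the deepest kept nucleus.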

How the results depend on the processing

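Over 162 called gene and class pairs, between 93 (suffix 2 alone) and 159 (no UMI minimum) were still called under the alternatives run. TMM factors gave 10 genes lower in Immature TB (4 by plain totals), 14 in Mature TB (2) and 25 in Immune nuclei (15), since the factors lower the ratios of every feature in these classes. Shares of all features under the alternatives are not given here. The counts in this section therefore show how the calls move and no trait of these genes. A minimum of 10 UMIs in the class left 1 gene higher in Immune nuclei (3), and leaving out the shallowest 20% of nuclei gave 5. Genes lower in Mature TB numbered 1 without the shallowest 20%, without the deepest 5% or without each gene's top nucleus, and 4 in suffix 1. Suffix 1 gave 7 genes lower in Mesenchymal nuclei (11), and own clusters 6. Suffix 2 gave 17 higher in Mesenchymal (28), 14 lower in Pigmented (30) and 6 higher in Immune nuclei (3). The log2 ratio of all summed genes in Immature TB, 0.34, was 0.59 in suffix 1, −0.053 in suffix 2 and 0.71 without the deepest member of each family. In Pigmented nuclei, −0.20, it was −0.10, −0.34 and −0.63 in those settings. Without the deepest members it was 1.28 in Mature TB (0.74), 0.68 in Mesenchymal (0.32), −0.54 in Immune (−0.61) and −0.045 in Epithelial nuclei (0.17). Suffix 2 gave −0.53 in Immune and 0.22 in Epithelial nuclei, own clusters −0.49 and 0.11, and leaving out the highest 6% of Scrublet scores 0.90 in Mature TB. In cluster 0 of the epithelium, 2 higher genes became 9 in suffix 1, 4 in suffix 2 and 4 without the highest Scrublet scores, and 7 lower became 3 in suffix 1. In suffix 1 the higher genes numbered 2 in cluster 3 (5), 6 in cluster 4 (10) and 1 in cluster 7 (6), and 3 were lower in cluster 7 (7) in either suffix. The share of nuclei with a UMI of any of the genes, 88.9% in Immature TB and 98.7% in Mesenchymal nuclei after thinning to 500 UMIs, was 100% in both at 800 UMIs and as deposited. At 800 UMIs it was 100% in Pigmented (98.8%), 95.8% in Immune (91.5%) and 99.8% in Epithelial nuclei (99.1%). Thinning to 800 UMIs left out 377 Epithelial nuclei, against 114 at 500 UMIs, so these shares are over different sets of nuclei. Single genes reversed in 8 cases, in log2 ratios. *TENM2* in Immune nuclei (1.00) gave −2.05 in suffix 1 and −0.58 without its top nucleus, and in Mesenchymal nuclei (1.25) −0.43 as a mean over nuclei. *sema3b* in Mesenchymal nuclei (1.63) gave −0.34 in suffix 2. With own clusters, *adgrl3.1* in Immune nuclei (−1.12) gave 0.54 and *efna3b* (2.07) −0.36. *efna2a* in Epithelial nuclei (−1.09) gave 0.19 as a mean over nuclei, and *unc5a* in Mesenchymal nuclei (1.83) −0.65 without nuclei holding an endothelium UMI. Except where stated, the cause was not tested. No paired analysis was possible because both jaws share 1 matrix with no replicate numbers and no map from barcodes to jaws. The few TB nuclei limit depth, where 3 UMIs equal over 100 CPM.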
